A study of Mus musculus with 24 samples.

Results

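The histone lysine demethylases described here were 10 genes, Kdm1a, Kdm1b, Kdm2a, Kdm2b, Kdm4a, Kdm4c, Kdm5a, Kdm5b, Kdm5c and Kdm6a, found by symbol among the 25965 gene entries of the deposited table. All 10 had 1 entry each. Their messenger RNA was read in single, naturally ovulated mouse oocytes, stripped of cumulus cells and zona, from adult Thy1.2-AMHTg/0 females and from wild-type Thy1.2-AMH0/0 females. The transgene overexpresses anti-Müllerian hormone (AMH), a follicle hormone of granulosa cells, and is named for the Thy1.2 promoter. Whether the oocyte itself makes the transgenic hormone is not stated in the labels. There were 10 transgenic oocytes and 11 wild-type oocytes from 4 females of each genotype, with 2 or 3 oocytes per female. The labels give 4 sequencing lanes as batches, and a transgenic and a wild-type female shared each. A single kit control RNA, whose tissue the labels do not name, was sequenced beside them. Values are RPM, a read count scaled to a library of 1000000 reads.

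These enzymes take methyl groups off histone tails. KDM1A and KDM1B are flavin-dependent amine oxidases acting on mono- and dimethylated H3K4, while the others carry a JmjC domain that uses iron and 2-oxoglutarate. In mice, KDM1B is needed in growing oocytes to set up maternal DNA methylation imprints. Maternal KDM1A is needed for development past the first cleavages, and maternal KDM4A for keeping H3K9 trimethylation away from active regions of the egg genome.

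Library totals were 20573270 to 33341040 reads for transgenic oocytes and 20441302 to 28305316 for wild-type oocytes, so that 3 reads stood for 0.0900 to 0.147 RPM. All 10 egg markers examined, Gdf9 and Zp3 among them, reached 1 RPM in each of the 21 oocytes. The summed level of 14 cumulus and granulosa markers was 0 to 3.11 RPM in transgenic and 0.147 to 28.7 RPM in wild-type oocytes, and Foxl2, Pappa, Areg and Ereg were at 0 in all of them. The 7 blood markers summed to 0 to 7.00 RPM in transgenic and 0 to 4.20 RPM in wild-type oocytes. Of these, Hba-a1, Hbb-b1, Ptprc and Lyz2 were at 0. The 4 oviduct markers summed to 0.366 to 7.25 RPM in transgenic and 2.79 to 5.53 RPM in wild-type oocytes, with Pax8 and Foxj1 at 0. The mean over oocytes was under 1 RPM for all 14 cumulus and granulosa markers, 6 of the 7 blood markers and 3 of the 4 oviduct markers. The remaining blood marker and the remaining oviduct marker reached 1 RPM or more. The median share of reads in listed genes was 93.3% for transgenic and 92.2% for wild-type oocytes. The part of these properties in the results below was not tested.

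Transcripts of 9 of the 10 genes were found in every oocyte, and their levels spanned a wide range. In RPM, before any correction for length, Kdm6a was the highest at 238 ± 39.9 RPM (SD over 21 oocytes), followed by Kdm1b at 157 ± 53.7 RPM, Kdm1a at 113 ± 26.8 RPM and Kdm2b at 99.6 ± 23.6 RPM. Kdm4a stood at 44.0 ± 10.3 RPM. Kdm5c, Kdm2a and Kdm5b formed a lower tier at 20.2 ± 4.39, 14.7 ± 3.98 and 10.6 ± 4.00 RPM, and Kdm5a stood at 2.20 ± 1.67 RPM. Kdm4c, the tenth, had reads in 4 of 21 oocytes.

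**Figure D1:**
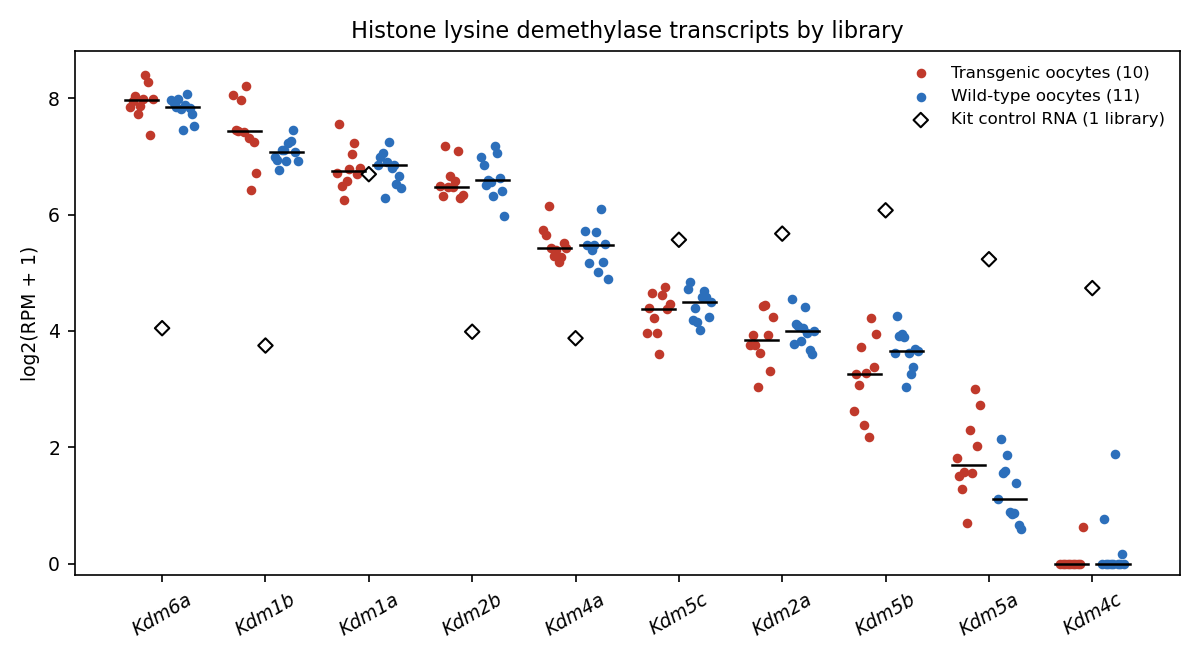
Each point is 1 oocyte, with log2(RPM + 1) on the vertical axis and the 10 genes along the horizontal axis in order of mean level; transgenic oocytes are on the left of each gene, wild-type oocytes on the right, short bars are medians and diamonds are the 1 control RNA library. Kdm6a, Kdm1b, Kdm2b and Kdm4a lie above the control RNA in all 21 oocytes, while Kdm5a, Kdm5b, Kdm5c, Kdm2a and Kdm4c lie below it.

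Because RPM is not corrected for transcript length, levels of different genes were compared after division by the length of the longest protein-coding transcript in GENCODE M21. The mean level per kilobase was 40.1 ± 6.72 RPM per kb for Kdm6a, 37.3 ± 8.86 for Kdm1a, 31.6 ± 10.8 for Kdm1b and 19.2 ± 4.55 for Kdm2b (SD over 21 oocytes). Kdm6a and Kdm1a were not separated beyond their spread, since Kdm6a was the higher in 15 of 21 oocytes and by the mean of 4 of 8 females. Kdm1a exceeded Kdm1b in 14 of 21 oocytes and by the mean of 7 of 8 females. Below them the order was steadier, except that Kdm2a and Kdm5b were not as clearly ordered in single oocytes. Kdm1b lay above Kdm2b in 20 oocytes, Kdm2b above Kdm4a (9.43 ± 2.22 RPM per kb) in 21, Kdm4a above Kdm5c (3.14 ± 0.681) in 21, and Kdm5c above Kdm2a (1.72 ± 0.464) in 20. Kdm2a lay above Kdm5b (1.22 ± 0.459 RPM per kb) in 15 oocytes and by the mean of 8 of 8 females, and Kdm5b above Kdm5a (0.201 ± 0.153) in 21. With the median transcript length, Kdm2a and Kdm5c changed places, since the median transcript of Kdm2a in the annotation is 1770.5 bases against 8578 for the longest.

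Among the amine oxidases, Kdm1b (chromosome 13, 47043499 to 47084613, GRCm38) is the paralog best known from the egg. It ranged from 84.7 through a median of 171 to 296 RPM in transgenic oocytes and from 108 through 134 to 174 RPM in wild-type oocytes. The lowest and the highest of all 21 values were thus both transgenic, and both came from the transgenic female of lane 3. Kdm1a (chromosome 4, 136550540 to 136602723), a subunit of the CoREST repressor complex, ranged from 74.8 through 106 to 187 RPM in transgenic oocytes and from 76.6 through 114 to 151 RPM in wild-type oocytes. Per length, the ratio of Kdm1b to Kdm1a was 0.344 to 2.04 (median 0.991) in transgenic oocytes, against 0.482 to 1.16 (median 0.808) in wild-type oocytes, against 0.0736 in the control RNA. The oocyte thus held the 2 transcripts at similar levels, while the control RNA held mostly Kdm1a. Each shares its locus with an opposite-strand entry, Kdm1a 4241 bases with Luzp1 (291 RPM) and Kdm1b 1239 bases with Tpmt (61.5 RPM). No source states that strand was kept, so reads in those overlaps cannot be told apart.

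The KDM2 enzymes act on H3K36 dimethylation and bind CpG-rich DNA through a CXXC zinc finger, and KDM2B brings the variant Polycomb complex PRC1.1 to CpG islands. Kdm2b (chromosome 5, 122870668 to 123015080) ranged from 77.3 through 88.2 to 143 RPM in transgenic oocytes and from 62.1 through 95.02 to 145 RPM in wild-type oocytes. Kdm2a (chromosome 19, 4316144 to 4398285) ranged from 7.24 through 13.4 to 20.9 RPM in transgenic oocytes and from 11.1 through 15.1 to 22.5 RPM in wild-type oocytes. Per length, Kdm2b exceeded Kdm2a in all 21 oocytes, by a median of 13.0-fold in transgenic oocytes, against 11.7-fold in wild-type oocytes. In the control RNA the ratio was 0.492, so there Kdm2a was the higher of the pair. The size of the fold in oocytes depends on the length used, here the longest transcript of each gene. With the median transcript length the gap was smaller, at means of 26.1 RPM per kb for Kdm2b and 8.32 for Kdm2a.

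KDM4A and KDM4C remove tri- and dimethyl marks from H3K9 and H3K36. Kdm4a (chromosome 4, 118136957 to 118180043) ranged from 35.1 through 42.0 to 70.1 RPM in transgenic oocytes and from 28.6 through 43.3 to 67.1 RPM in wild-type oocytes. Kdm4c (chromosome 4, 74242497 to 74405860) had reads in 1 of 10 transgenic oocytes, at 0.549 RPM, and in 3 of 11 wild-type oocytes, at 0.116, 0.707 and 2.70 RPM. The sums were 13 reads over the transgenic and 80 reads over the wild-type oocytes. Of the other 2 KDM4 genes examined, Kdm4b had reads in 5 of 10 transgenic and 3 of 11 wild-type oocytes, at no more than 4.08 RPM, and Kdm4d in 4 of 10 transgenic and 1 of 11 wild-type oocytes, at no more than 1.27 RPM. Kdm4a was thus the 1 KDM4 transcript seen in every oocyte.

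Of the 10 genes, 8 had an entry among the RefSeq promoters (GRCm38.p6). The 250 bases before the start are shown for Kdm6a and Kdm1b, the 2 with the highest mean RPM before correction for length, and for both annotated starts of Kdm4c, the scarcest, 5′ to 3′ on the gene's strand with every CG in capitals.
Kdm6a, chrX:18162325-18162574, plus strand: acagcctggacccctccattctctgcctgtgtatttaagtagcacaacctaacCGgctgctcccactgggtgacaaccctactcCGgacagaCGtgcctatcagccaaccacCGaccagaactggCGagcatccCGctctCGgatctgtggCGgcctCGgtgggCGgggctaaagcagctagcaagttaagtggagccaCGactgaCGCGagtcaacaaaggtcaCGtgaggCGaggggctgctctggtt
Kdm1b, chr13:47043249-47043498, plus strand: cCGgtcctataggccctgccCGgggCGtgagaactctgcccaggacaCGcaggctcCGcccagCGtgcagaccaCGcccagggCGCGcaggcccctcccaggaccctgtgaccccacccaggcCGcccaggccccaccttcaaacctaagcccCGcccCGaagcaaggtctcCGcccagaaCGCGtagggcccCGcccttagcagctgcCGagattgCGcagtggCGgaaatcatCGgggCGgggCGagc
Kdm4c, start of the table's entry, chr4:74242247-74242496, plus strand: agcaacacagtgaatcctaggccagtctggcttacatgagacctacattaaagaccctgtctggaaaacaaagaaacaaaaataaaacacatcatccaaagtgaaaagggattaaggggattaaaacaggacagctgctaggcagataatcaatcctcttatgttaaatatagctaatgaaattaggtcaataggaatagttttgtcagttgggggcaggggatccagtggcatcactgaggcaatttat
Kdm4c, second start, chr4:74251629-74251878, plus strand: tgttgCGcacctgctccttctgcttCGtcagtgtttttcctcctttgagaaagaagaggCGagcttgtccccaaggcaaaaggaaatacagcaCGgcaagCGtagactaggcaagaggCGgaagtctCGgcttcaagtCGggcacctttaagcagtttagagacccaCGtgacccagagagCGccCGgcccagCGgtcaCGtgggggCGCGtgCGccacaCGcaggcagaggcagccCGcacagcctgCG

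The dinucleotide CG, which reads the same on both strands, occurred 15 times before Kdm6a, 22 times before Kdm1b and 19 times before the second Kdm4c start, and 0 times before the first, which lies 9382 bases upstream. The median of 32851 RefSeq promoters was 6, and 72.7%, 85.2% and 80.3% of them held fewer than Kdm6a, Kdm1b and the second Kdm4c start. The 6 letters TATAAA, searched on both strands, were in none of the 12 windows of these genes and in 12.4% of all promoters. These are descriptions of the windows: the data do not show which start an oocyte used.

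The KDM5 enzymes remove di- and trimethylation from H3K4, and KDM5A and KDM5B are known in mice for trimming the broad H3K4 trimethylation domains that the egg hands to the embryo. Kdm5c (chromosome X, 152233020 to 152274535), whose human gene is mutated in X-linked intellectual disability, ranged from 11.2 through 19.9 to 26.1 RPM in transgenic oocytes and from 15.2 through 21.7 to 27.6 RPM in wild-type oocytes. Kdm5b (chromosome 1, 134560171 to 134632877) ranged from 3.50 through 8.63 to 17.5 RPM in transgenic oocytes and from 7.18 through 11.5 to 18.2 RPM in wild-type oocytes. The oocytes of the 2 genotypes overlapped, and 3 transgenic oocytes lay below every wild-type oocyte. Kdm5a (chromosome 6, 120364099 to 120444574) ranged from 0.615 through 2.23 to 7.00 RPM in transgenic oocytes and from 0.506 through 1.16 to 3.39 RPM in wild-type oocytes, on 13 to 144 reads per oocyte. Kdm5a thus rested on few reads in some oocytes, and 276 of its bases overlap the opposite-strand entry Ccdc77 (10.5 RPM).

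Kdm6a (chromosome X, 18162575 to 18279936) encodes UTX, an H3K27 demethylase that sits in the KMT2C and KMT2D complexes. It ranged from 163 through 250 to 336 RPM in transgenic oocytes and from 174 through 230 to 269 RPM in wild-type oocytes. Its JmjC paralog Kdm6b was also abundant at 121 ± 42.6 RPM over 21 oocytes, and per length Kdm6a exceeded it in all 21. The Y-linked paralogs of Kdm6a and Kdm5c, Uty and Kdm5d, had 0 reads in all 21 oocytes, which allows up to 0.00600 RPM over them together (3 reads), whereas the control RNA held 255 reads of Uty and 298 of Kdm5d.

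Among the other JmjC genes examined, Jhdm1d (an older symbol of Kdm7a, an H3K9 and H3K27 demethylase) stood at 290 ± 60.3 RPM; per length this was 30.3 ± 6.31 RPM per kb, next to 31.6 ± 10.8 for Kdm1b. The PHD-finger demethylase Phf8 stood at 60.2 ± 13.5 RPM, Mina (now Riox2) at 32.5 ± 7.21, Jmjd1c at 15.4 ± 4.58, the H3K9 demethylase Kdm3b at 11.9 ± 3.16, and Phf2 at 11.5 ± 3.40 RPM. Jmjd5 (Kdm8) at 3.98 ± 3.33 and Kdm3a at 3.68 ± 3.00 RPM varied nearly as much as their mean. Hr, the hairless gene, and 2410016O06Rik (Riox1) had at most 7 and 6 reads in any oocyte.

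The comparison of the genotypes asked whether raised AMH goes with other demethylase levels in the ovulated oocyte, and none of the 10 genes passed the threshold. The oocytes of a female were averaged on the log2(RPM + 1) scale, which understates the change of low genes, and the 4 transgenic were compared with the 4 wild-type females by limma across the 10987 genes whose mean over oocytes reached 1 RPM. Of the 10 genes, 9 entered the test, and Kdm4c did not reach the filter. At a Benjamini-Hochberg adjusted p under 0.05 limma called 0 of these 9, against 0% of all genes tested, and 1 of them, Kdm5a, was higher at an unadjusted p under 0.05, against 6.81% of all genes tested in either direction and 2.78% higher. On average 5 of the 9 were higher and 4 lower in transgenic females, against 47.8% higher and 52.2% lower over all genes, with a median log2 difference of 0.068 for the 9 and -0.014 over all. The female means of the genotypes overlapped for all 9, while 4.31% of all genes tested did not overlap (1.67% with the transgenic females above and 2.64% below). Nothing in the labels says how the females were housed or related, so the p-values measure the spread between these females.

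Kdm5a had the largest difference of the 9. Its female means were 2.17, 1.33, 4.28 and 4.34 RPM in the transgenic females of lanes 1 to 4, against 2.16, 1.84, 1.08 and 0.543 RPM in the wild-type females of the same lanes. The transgenic females of lanes 3 and 4 lay above all others, that of lane 1 matched the highest wild-type female, and that of lane 2 lay among the wild-type females. Kdm5a averaged 3.03 ± 1.52 RPM in transgenic females, against 1.41 ± 0.732 RPM in wild-type females (SD, n = 4 each). The log2 difference was 0.70 ± 0.32 (SE; limma p = 0.0471, adjusted p = 0.727). By lane the log2 difference was 0.055, -0.27, 1.25 and 1.75, so it was positive in 3 of 4 lanes. Over 15 alternative fits the log2 difference ran from 0.51 without the wild-type female of lane 4 to 1.05 with a pseudocount of 0.1, and it was 1.01 with voom. The limma p ran from 0.0124 to 0.141, with 0.0581 under the lane block and 0.0599 with the pseudocount of 0.1, and the adjusted p from 0.305 to 0.999.

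Kdm5b differed in the other direction. Its female means were 6.84, 7.96, 9.93 and 11.9 RPM in the transgenic females of lanes 1 to 4, against 14.5, 11.8, 9.73 and 11.7 RPM in the wild-type females. It averaged 9.16 ± 2.23 RPM in transgenic females, against 11.9 ± 1.96 RPM in wild-type females (SD, n = 4 each). The log2 difference was -0.44 ± 0.23 (limma p = 0.0758, adjusted p = 0.751). Over the alternative fits it ran from -0.58 to -0.34, with limma p from 0.0269 to 0.201 and adjusted p from 0.418 to 0.999. On averaged log2(RPM + 1) the difference was below 0 in all 4 lanes, at -0.99, -0.56, -0.19 and -0.0018, against 10.3% of all genes tested (18.3% had 1 sign in all lanes, either way). In mean RPM the transgenic female was the lower in lanes 1 and 2 and slightly the higher in lanes 3 and 4. Per length, the ratio of Kdm5b to Kdm5a was 2.26 to 8.61 (median 3.54) in transgenic oocytes, against 6.51 to 28.6 (median 10.7) in wild-type oocytes. In the control RNA it was 2.28. These are single oocytes, not females, and the gap was not tested. It follows from joining the tested members with the largest higher and the largest lower difference. The top value came from oocyte B of the wild-type female of lane 4, where Kdm5a was at only 0.506 RPM.

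Kdm1b had female means of 220, 198, 180 and 127 RPM in the transgenic females of lanes 1 to 4, against 118, 132, 159 and 127 RPM in the wild-type females. On averaged log2(RPM + 1) the difference was 0.86 in lane 1 and 0.56 in lane 2, and close to 0 in lanes 3 and 4, at -0.0016 and -0.019, although in mean RPM the transgenic female of lane 3 was the higher. Averages were 181 ± 39.5 RPM in transgenic females, against 134 ± 17.6 RPM in wild-type females (SD, n = 4 each). The log2 difference was 0.35 ± 0.18 (limma p = 0.0749, adjusted p = 0.751). Over the alternative fits it ran from 0.24 without the transgenic female of lane 1 to 0.50 without that of lane 4. The limma p ran from 0.0137 to 0.206, with 0.0355 by voom, and the adjusted p from 0.357 to 0.999.

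For the other 6 genes tested the log2 differences lay between -0.15 and 0.12, with limma adjusted p from 0.872 to 0.947. Kdm6a averaged 245 ± 38.9 RPM in transgenic females, against 224 ± 21.5 RPM in wild-type females, a log2 difference of 0.12 with a 95% interval of -0.21 to 0.44. Kdm1a averaged 117 ± 26.02 RPM in transgenic females, against 110 ± 13.2 RPM in wild-type females, with an interval of -0.31 to 0.45. Kdm2b had an interval of -0.46 to 0.35, Kdm4a of -0.24 to 0.48, Kdm5c of -0.53 to 0.26 and Kdm2a of -0.61 to 0.31. These intervals do not show equal levels, but a doubling or a halving of the mean lies outside each of them. Among the 9 other JmjC genes tested, 5 were higher and 4 lower on average and 0 had an unadjusted limma p under 0.05. Phf2, at 12.6 ± 2.16 RPM in transgenic females, against 10.0 ± 1.45 RPM in wild-type females, was higher in all 4 lanes on averaged log2(RPM + 1), against 7.97% of all genes tested with this pattern (adjusted p = 0.765).

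**Figure D2:**
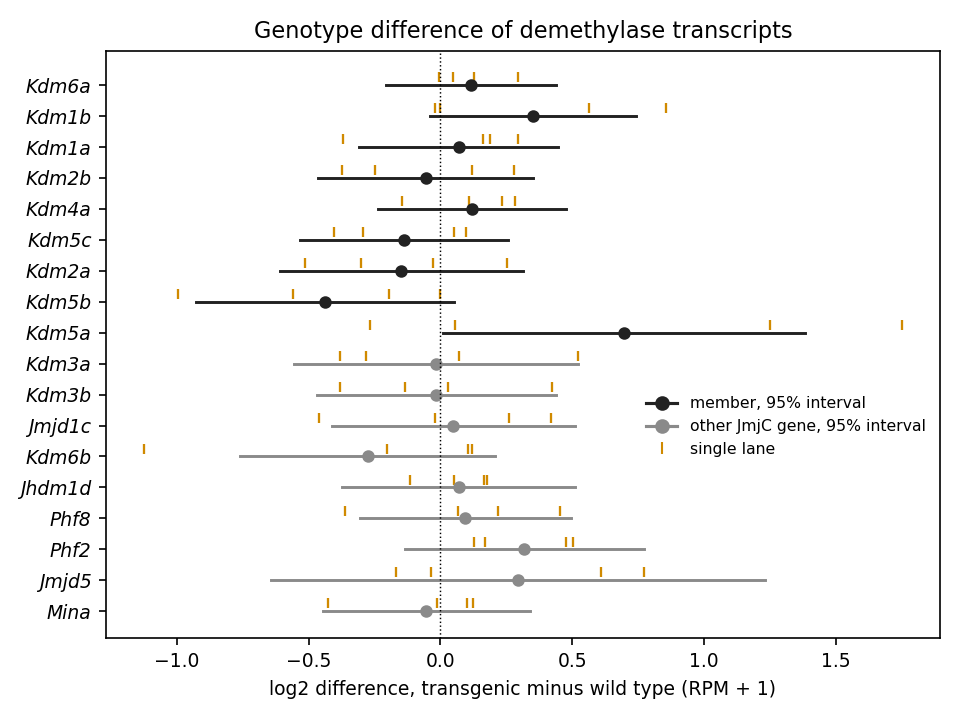
Points are log2 differences of transgenic minus wild-type females on the log2(RPM + 1) scale, with 95% intervals from limma before adjustment (n = 4 and 4), and ticks are the differences within single lanes; the 9 tested members are dark and the 9 other JmjC genes grey. Kdm5a at 0.70 is the 1 gene whose interval leaves out 0, and its lanes run from -0.27 to 1.75.

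Among these oocytes, sisters of 1 female differed in Kdm1b more in transgenic than in wild-type females. The SD between sisters on the log2 scale was 0.43, 0.32, 0.90 and 0.37 in the transgenic females of lanes 1 to 4, against 0.11, 0.11, 0.12 and 0.12 in the wild-type females, so all 4 transgenic females lay above all 4 wild-type females. In RPM the sisters spanned 174 to 265, 171 to 251, 84.7 to 296 and 104 to 150 in the transgenic females, against 108 to 126, 120 to 138, 150 to 174 and 119 to 134 in the wild-type females. Pooled over females the SD was 0.60 for transgenic and 0.11 for wild-type oocytes, a difference of 0.48. The difference was larger than for 99.9% of 885 genes within a log2 of 0.5 of its level. Kdm1b was singled out because this spread stood out, so the rank is a description and not support. The difference was 0.25 without the transgenic female of lane 3 and 0.48 to 0.58 without any other female. The SDs of the transgenic females of lanes 1 and 4 and of the wild-type female of lane 4 rest on 2 oocytes each.

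Kdm1b was the 1 of 9 tested members with this separation, which 1.26% of all genes tested showed, and 1.29% showed the reverse. The pattern was noticed in these data and no p is given. Every oocyte had at least 1742 reads of Kdm1b. Across the 21 oocytes log2 Kdm1b had a Pearson's r of -0.0086 (Spearman's rho -0.070) with the library total and of 0.42 (rho 0.27) with the share of reads in listed genes, as a description. Kdm5b came next in this respect, with a pooled SD between sisters of 0.75 for transgenic and 0.34 for wild-type oocytes, but its females overlapped. For the other 7 genes the pooled SD over all females ran from 0.21 for Kdm6a to 0.48 for Kdm5a, and 29.5% of 674 genes of like level varied less between sisters than Kdm6a.

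**Figure D3:**
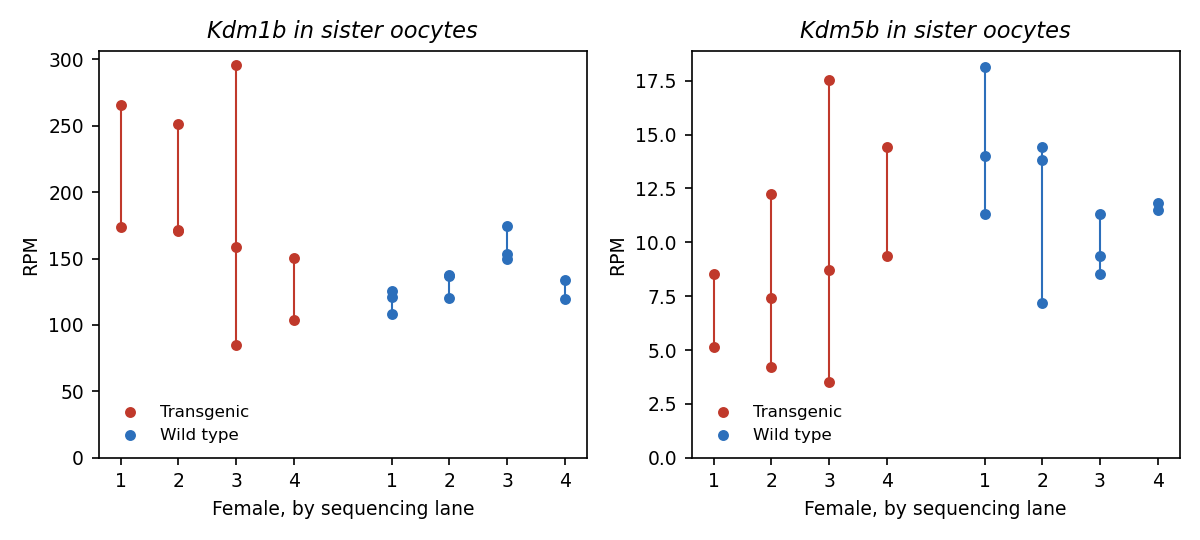
Points are the RPM of single oocytes of each female, ordered by lane, with transgenic females on the left and wild-type females on the right of each panel; lines join the lowest and highest sister. Kdm1b spans 84.7 to 296 RPM in the transgenic female of lane 3 and stays within 108 to 174 RPM in all wild-type oocytes, and Kdm5b spans 3.50 to 17.5 RPM in that same transgenic female.

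In the transgenic female of lane 3, the oocyte with the least Kdm1b had the most Kdm5b, Kdm5a and Kdm5c of the 3 sisters. Its 3 oocytes held 296, 159 and 84.7 RPM of Kdm1b, with 8.73, 3.50 and 17.5 RPM of Kdm5b, 3.89, 1.94 and 7.00 RPM of Kdm5a and 11.2, 23.5 and 26.1 RPM of Kdm5c. Across all 21 oocytes, which share 4 lanes and 8 females, Pearson's r of Kdm1b was -0.54 with Kdm5c (Spearman's rho -0.34) and -0.52 with Kdm5b (rho -0.63), the 2 lowest r of 36 pairs among the 9 tested genes. By rho, Kdm1a with Kdm1b (-0.35) was below Kdm1b with Kdm5c. The highest r was 0.57 for Kdm2b and Kdm6a (rho 0.60), and the median r of the pairs was 0.065. Kdm2b and Kdm5c also ran against the share of reads in listed genes, with r of -0.64 (rho -0.66) and -0.53 (rho -0.52). With the same share r was -0.36 for Kdm5b (rho -0.28), -0.32 for Kdm6a (rho -0.23) and 0.42 for Kdm1b (rho 0.27). The part of this share in the pairs was not tested.

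All 10 genes had reads in the kit control RNA, and 6 of them differed from it by at least 4-fold in oocytes, against 68.3% of the genes compared, so the members did not stand apart in number. The control is 1 library without replicate, so folds are a description, with 4-fold as the size named and 95% exact Poisson intervals that cover counting error only. Oocytes were at least 4-fold higher for 3 of the 10 genes, against 18.7% of the 16105 genes at 1 RPM or more in either. These were Kdm6a (238 RPM in oocytes against 15.5, interval 13.9 to 17.3, in the control RNA; 15.3-fold), Kdm1b (157 against 12.4, interval 11.0 to 14.0; 12.7-fold) and Kdm2b (99.6 against 14.8, interval 13.3 to 16.5; 6.71-fold). All 21 oocytes were above the control for each of them and for Kdm4a (3.22-fold).

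Oocytes were at least 4-fold lower for 3 of the 10, against 49.6% of those genes. Kdm5b stood at 10.6 RPM in oocytes against 66.3 RPM in the control RNA, and Kdm5a at 2.20 RPM in oocytes against 36.6 RPM in the control RNA, which is 6.25- and 16.6-fold lower. Kdm4c stood at 0.194 RPM in oocytes against 25.6 RPM in the control RNA, 132-fold lower. That mean rests mostly on oocyte A of the wild-type female of lane 3, with 57 of the 93 reads, while 17 of 21 oocytes were at 0; without it the level was 0.0686 RPM and 374-fold lower, a value added after the data were seen. Kdm2a and Kdm5c were 3.39- and 2.29-fold lower, below the control in all 21 oocytes. Kdm1a stood at 113 RPM in oocytes against 102 RPM in the control RNA, with 14 of 21 oocytes above it. Of the other 15 JmjC genes, Kdm6b (17.2-fold) and Jhdm1d (11.0-fold) were at least 4-fold higher, and 7 were at least 4-fold lower, the Y-linked Uty and Kdm5d included; these were at least 1927- and 2252-fold lower by the limit of 3 reads over all oocytes. Within the KDM4 and KDM2 families the members thus lay on different sides, with Kdm4a and Kdm2b above and Kdm4c and Kdm2a below the control, while all 3 KDM5 genes lay below it.

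**Figure D4:**
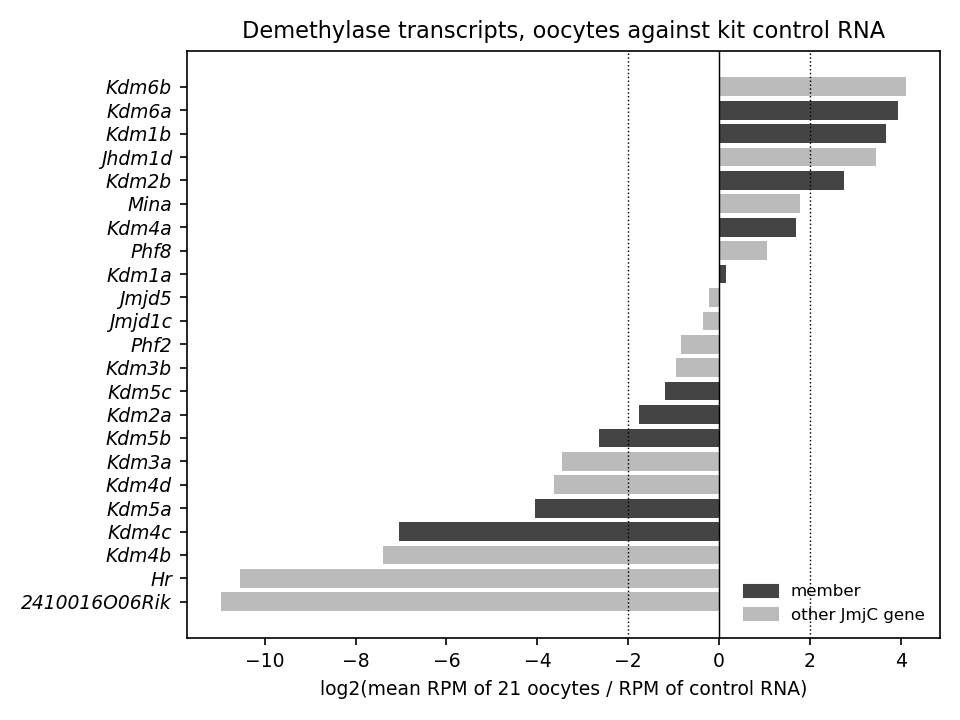
Bars are the log2 ratio of the mean RPM of 21 oocytes to the RPM of the 1 control RNA library, dark for members and light for the other JmjC genes with more than 3 reads in oocytes; dotted lines mark 4-fold. Kdm6a (3.94), Kdm1b (3.66) and Kdm2b (2.75) lie beyond the upper line, and Kdm5b (-2.64), Kdm5a (-4.06) and Kdm4c (-7.05) beyond the lower line.

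Enzymes that write the marks these demethylases remove, subunits of such enzyme complexes, and partners of the demethylases did not pass the threshold either. The lists for writing H3K4, H3K9, H3K27 and H3K36 methylation held 24 tested genes, subunits such as Dpy30 and Suz12 included. Of these, 12 were higher and 12 lower in transgenic females, with a median log2 difference of 0.0021. Limma called 0 of them, and 0 had an unadjusted p under 0.05. Those with the smallest p in their lists were Setd1b (5.25 ± 0.826 RPM in transgenic females, against 6.705 ± 0.684 RPM in wild-type females) and Dpy30 for H3K4, Setdb1 (62.2 ± 12.2 RPM in transgenic against 73.1 ± 10.8 RPM in wild-type females) and Ehmt1 for H3K9, Ezh1 (104 ± 14.2 RPM in transgenic against 85.7 ± 7.37 RPM in wild-type females) and Suz12 for H3K27, and Setd2 (111 ± 22.1 RPM in transgenic against 92.3 ± 13.0 RPM in wild-type females) and Whsc1l1 for H3K36. Setd1b and Setdb1 were lower in all 4 lanes on averaged log2(RPM + 1), against 10.3% of all genes tested. Ezh1 and Setd2 were higher in all 4 lanes, against 7.97% of all genes tested. Genes picked for a small p tend to keep 1 sign across lanes, so this is a description. For Setd1b, Setdb1, Ezh1 and Setd2 the limma adjusted p were 0.764, 0.796, 0.764 and 0.790.

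The lists of partners were chosen with earlier results of these data known, so the counts below are a description and not support. Of 12 tested partners of KDM1A and KDM1B, 5 were higher and 7 lower, with 0 at an unadjusted limma p under 0.05. The corepressor Rcor2 stood at 6.76 ± 3.87 RPM in transgenic females, against 4.13 ± 1.99 RPM in wild-type females, and Hmg20b at 26.04 ± 5.18 RPM in transgenic against 32.4 ± 6.31 RPM in wild-type females. Of 8 partners of KDM2B in PRC1.1, 4 were higher and 4 lower, and 2 were lower at an unadjusted limma p under 0.05, against 4.03% of all genes tested. They were Skp1a (651 ± 130 RPM in transgenic females, against 836 ± 61.3 RPM in wild-type females; log2 difference -0.38, p = 0.0334) and Rybp (50.8 ± 17.1 RPM in transgenic against 65.7 ± 5.11 RPM in wild-type females; -0.48, p = 0.0447), each lower in 3 of 4 lanes, with limma adjusted p of 0.724 and 0.726. Without the transgenic female of lane 1 Skp1a had a log2 difference of -0.23 (limma p = 0.0981), and without that of lane 2 Rybp had -0.33 (limma p = 0.148). Of 5 partners of KDM6A, 3 were higher and 2 lower, and 1 was higher at an unadjusted limma p under 0.05, against 2.78% of all genes tested. Paxip1, which links the KMT2C and KMT2D complexes to chromatin, stood at 50.3 ± 12.8 RPM in transgenic females, against 31.6 ± 7.05 RPM in wild-type females, a log2 difference of 0.61 ± 0.20 that was positive in 3 of 4 lanes (limma p = 0.00949, adjusted p = 0.724), and Ncoa6 at 154 ± 43.5 RPM in transgenic against 129 ± 11.0 RPM in wild-type females.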

How the data were processed

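Single oocytes were lysed, amplified with SMART-Seq v4 and made into ThruPLEX libraries, per the labels' protocols. Trim Galore, FastQC, HISAT2, GRCm39 and mm39 are named, without versions, per the submitters' processing notes; which tool counted reads and on which annotation is not stated there, and the table's coordinates are those of GRCm38. The deposited values are log2 values, named RPKM by the authors but without division by length: of 256342 values under 2000 reads, 100% lay within 0.02 of a whole read once the minimum of each column was set to 0.9 reads. Reads and RPM were recovered from them, with genes without reads set to 0. Of 24 labelled samples 22 were used; not analysed here were the water control and the oocyte A of lane 1 that is transgenic.

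Genes whose mean over oocytes reached 1 RPM were compared on female means of log2(RPM + 1) with limma 3.58.1 (eBayes with trend, R 4.3.3). The test was two-sided, at a Benjamini-Hochberg threshold of 0.05, and was first checked on simulated data. That check planted log2 differences of 1 and 2 in genes of at least 5 RPM, so smaller differences and lower genes were not checked. Lanes pair the females per the labels; lane mates' deviations correlated at -0.04, 0.084, 0.34 and 0.32. The plan assumed RPKM; RPM took its place. Named genes were the members, the other demethylases with an entry, and the 2 smallest p per list; likeness is among genes of at least 10 RPM. Members and lists were chosen with earlier results of these data known, and 3 older symbols in the lists were corrected afterwards. Alternatives were the lane as block, pseudocounts 0.1 and 0.5, no filter or 5 RPM, median-of-ratios scaling, single oocytes, voom, and leaving out each female.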

Additional observations from a re-analysis of the deposited data

How the results depend on the processing

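Differences of 32 named genes were refitted under 16 alternatives, which gave 509 values; 484 kept their direction and their side of the threshold and 25, in 11 genes, turned round, to values between -0.13 and 0.15. Among them Jmjd5, at 0.29 with all females, was at -0.077 without the wild-type female of lane 2. No member was called by limma under any alternative, and the lowest adjusted p of a member was 0.305. With the lane as replicate block 0 genes were called, members included, and 0 members had an unadjusted p under 0.05. Without the transgenic female of lane 4, 2 members, Kdm1b and Kdm5b, had an unadjusted limma p under 0.05, against 7.03% of all genes tested. Single oocytes, with females as random effects and lanes as blocks, called 12 genes, and leaving out 1 female called 0 to 1, the 1 without the transgenic female of lane 1; the cause was not tested. Median-of-ratios scaling shifted the median of all genes by 0.036 and gave 0.011 for Kdm3a and 0.019 for Kdm3b, and voom gave 0.11 for Kdm3a. Over the fits without 1 female, log2 differences ran from -0.031 to 0.20 for Kdm1a, -0.19 to 0.061 for Kdm2b, -0.16 to 0.15 for Kdm3a, -0.15 to 0.045 for Kdm3b, -0.077 to 0.16 for Jmjd1c, -0.11 to 0.21 for Jhdm1d, -0.021 to 0.18 for Phf8, -0.077 to 0.67 for Jmjd5, -0.14 to 0.030 for Mina, -0.25 to 0.017 for Suz12 and -0.13 to 0.21 for Whsc1l1. A filter of 5 RPM left out Kdm5a. Without a filter Kdm4c had a log2 difference of -0.16 ± 0.14 (limma adjusted p = 0.847). Kdm5a rests on as few as 13 reads in an oocyte.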

Other observations

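Among 6527 genes whose mean reached 10 RPM, those whose log2 level followed Kdm6a most closely across the 21 oocytes were Tnks, which encodes tankyrase (Pearson's r 0.85, Spearman's rho 0.89), Phf3 (0.83 and 0.82) and Otud4 (0.83 and 0.86). Without the 2 oocytes farthest from the median, r was 0.83, 0.81 and 0.75. For Kdm1b they were Usp33 (0.88 and 0.61), Zfp655 (0.88 and 0.76) and Gm6768 (0.86 and 0.81), with r of 0.76, 0.81 and 0.82 without those 2. The median r over all these genes was 0.085 for Kdm6a and -0.037 for Kdm1b. The oocytes share 4 lanes and 8 females, the genes were picked as the highest of many, and no p is given.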
